A study of Bos taurus with 12 samples.

Results

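The miR-181 family is a set of 4 mature miRNAs, bta-miR-181a, bta-miR-181b, bta-miR-181c and bta-miR-181d, among the 388 mature bovine miRNAs measured by small RNA sequencing in the mammary gland. The members were chosen by name, and all 4 had reads in all 12 libraries. Each library came from a biopsy of a different multiparous Chinese Holstein cow free of mastitis, and the cows fell into 4 groups of 3. HP and LP cows had a high or a low percentage of protein in their milk and were sampled in lactation, at its peak. HD and LD cows had a high or a low percentage likewise and were sampled when non-lactating, before the expected calving. The study took the percentages from herd records of the previous lactation. No group is described with a treatment or an engineered allele. Because the stages were sampled from different cows, a difference between stages is a difference between cows.

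The miR-181 miRNAs share one seed, the stretch near the 5′ end through which a miRNA pairs with its target mRNAs, and differ from one another at a few other bases. They are written in the genome as pairs that lie next to each other, so that the members of a pair can be cut from one primary transcript. miR-181a is best known from lymphocytes, where it tunes the signalling threshold of the T cell receptor and takes part in B and T cell differentiation. Family members are also found in many non-immune tissues. In the mammary gland, the end of lactation can bring loss of secretory cells, regrowth of stroma and an influx of immune cells. The non-lactating cows here were sampled before the expected calving rather than at the end of lactation.

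In the RefSeq annotation of the ARS-UCD2.0 assembly, MIR181B-1 and MIR181A-1 are neighbours with no gene spanning them. MIR181A-2 and MIR181B-2 are neighbours within the span of NR6A1, a nuclear receptor gene. MIR181D and MIR181C are neighbours within the span of NANOS3, a germ cell gene. The deposited table lists 6 precursor entries for the 4 members, since miR-181a and miR-181b each have 2 precursors. The entries of miR-181a-1 and miR-181a-2 differed by -3 to 1 reads, so the mature sequence was credited in almost the same number to both loci and its source cannot be told apart. The entry of miR-181b-2 was higher than that of miR-181b-1 in all 12 libraries, by 2.08% to 5.49% with a median of 3.72%. One entry was kept for each member, the one with the higher mean.

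Levels are given in TPM, which here means reads of a miRNA scaled so that every library has the same total. The smallest steps between values imply that 6026797 to 23577942 reads a library were credited to the miRNA entries, with a read shared by several precursors counted at each. This is not the sequencing depth, which the study describes as nearly even across libraries. These estimates ran from 6026797 to 13374171 reads in lactation libraries and from 11047701 in non-lactating ones, and their part in the stage differences was not tested. The least abundant member, miR-181d, rested on an estimated 115 reads in HP1, its fewest, and 3639 in HD2, its most, and counting error weighs most on its lactation values. As the tissue is bulk, fewer cells of a type and less miRNA per cell cannot be told apart.

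miR-181a was the abundant member and one of the leading miRNAs of the gland, above all of the non-lactating gland. In lactation its level was 18798, 23202 and 24411 TPM in HP and 16147, 20322 and 11242 TPM in LP. In the non-lactating period it was 39864, 36143 and 44530 TPM in HD and 28043, 32769 and 30282 TPM in LD. Every non-lactating library lay above every lactation library. The group means were 22137 ± 2954 TPM (SD, n = 3) for HP, 15904 ± 4545 TPM for LP, 40179 ± 4202 TPM for HD and 30365 ± 2364 TPM for LD. By mean level miR-181a ranked 10 of 388 miRNAs in lactation, where it took 1.90% of the library, and 5 in the non-lactating period, where it took 3.53%.

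miR-181b, the usual partner of miR-181a on both of its precursor pairs, was the member whose level moved least with stage. It had 2241, 1120.2 and 1157 TPM in HP and 849.8, 1189 and 729 TPM in LP. In the non-lactating period it had 1832, 1813 and 1776 TPM in HD and 1532, 898 and 1076 TPM in LD. The stages overlapped, and a single lactation library, HP1, held the highest value of all 12. The group means were 1506 ± 637 TPM for HP, 923 ± 238 TPM for LP, 1807 ± 28.2 TPM for HD and 1169 ± 327 TPM for LD (SD, n = 3 each).

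miR-181c was far below miR-181b in lactation and near its level in the non-lactating period. Its level was 179, 357 and 289 TPM in HP and 220.2, 429 and 334 TPM in LP. It reached 1782, 2175 and 1246 TPM in HD and 801, 983 and 1204 TPM in LD. The lowest non-lactating library was well above the highest lactation library. Group means were 275 ± 90.1 TPM for HP, 328 ± 105 TPM for LP, 1734 ± 466.2 TPM for HD and 996 ± 202 TPM for LD (SD, n = 3 each).

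miR-181d, the neighbour of miR-181c, was the scarcest member and the one that differed most between stages. Lactation libraries held 19.1, 18.0 and 16.8 TPM in HP and 16.6, 28.1 and 23.2 TPM in LP. Non-lactating libraries held 152, 165 and 133 TPM in HD and 78.8, 78.8 and 104 TPM in LD. The ranges of the stages did not meet. Group means were 18.0 ± 1.14 TPM for HP, 22.6 ± 5.79 TPM for LP, 149.8 ± 16.4 TPM for HD and 87.3 ± 14.8 TPM for LD (SD, n = 3 each). The plot of TPM by library shows all 4 members over the 4 groups.

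**Figure D1:**
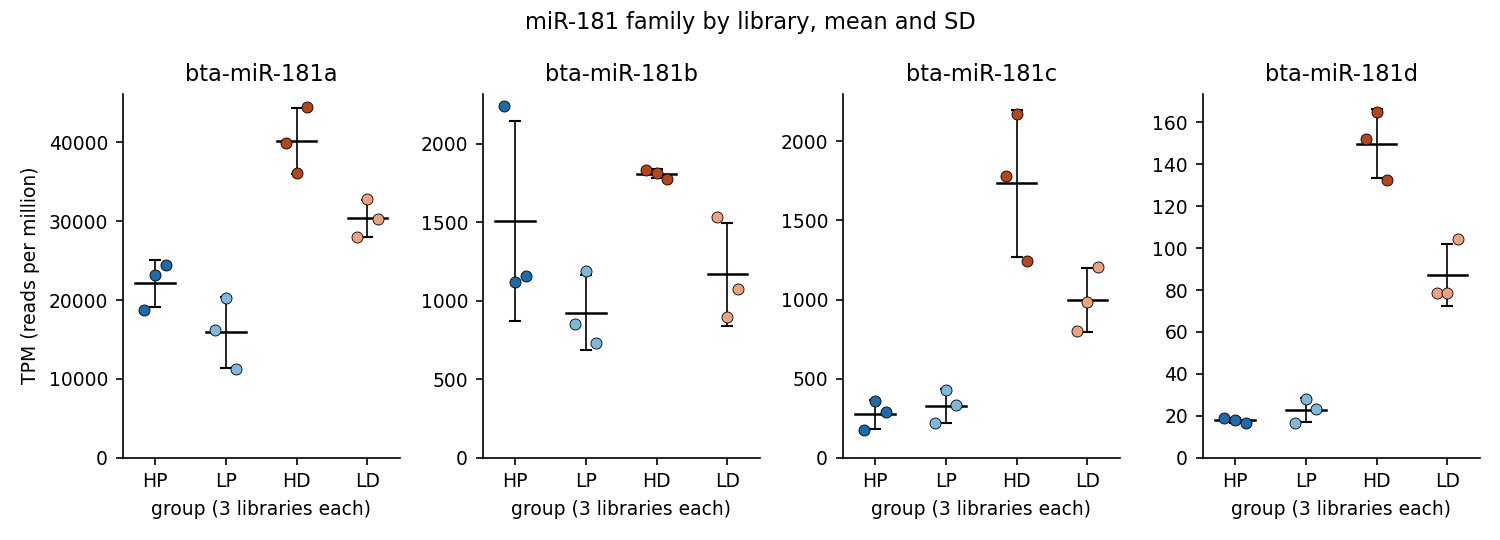
TPM of each miR-181 member in every library, with 3 libraries in each of the groups HP, LP, HD and LD, where points are libraries, horizontal lines are group means and bars are 1 SD. miR-181a, miR-181c and miR-181d sit higher in every non-lactating library (HD, LD) than in any lactation library (HP, LP), whereas the miR-181b values of the stages overlap, with the HP1 library highest at 2241 TPM.

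The family as a whole was more abundant in the non-lactating gland. Summed over the 4 members, TPM came to 23936 ± 2410 for HP, 17177 ± 4821 for LP, 43870.3 ± 3700.1 for HD and 32617 ± 2137 for LD (SD, n = 3 each). On TPM, the mean of 6 non-lactating libraries was 1.86-fold that of 6 lactation libraries, and the sum was lower in every lactation library than in any non-lactating one. The two-sided exact permutation p was 0.00216, the smallest that 6 libraries against 6 can give. With size factors the difference, lactation minus non-lactating, went from -17687 to -16576, and the exact permutation p was 0.0108. Since miR-181a made up nearly all of the sum, this total mainly follows that member.

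For the stage comparison, TPM were divided by a size factor for each library (the median of its ratios to the typical library), 1 was added and log2 was taken, so that fold changes of a low miRNA are slightly understated. A linear model in limma was fitted over all 388 miRNAs and all 12 libraries with the phenotype as covariate, and a call is a Benjamini-Hochberg adjusted p under 0.05 over the 388. miR-181a, miR-181c and miR-181d were lower in lactation by that test. miR-181d had a log2 fold change of lactation over non-lactating of -2.35 ± 0.26 (SE), 5.09-fold higher in the non-lactating period, with a limma adjusted p of 2.58e-05. It had the 5th lowest log2 fold change of all miRNAs. miR-181c followed with -2.04 ± 0.29, 4.13-fold higher in the non-lactating period and 9th lowest, with a limma adjusted p of 0.000127. miR-181a changed less, by -0.81 ± 0.24 or 1.75-fold, with a limma adjusted p of 0.0148. miR-181b did not pass, at -0.23 ± 0.22 with a 95% interval of -0.70 to 0.24 and a limma adjusted p of 0.417. The 3 calls among 4 members stand beside a background of 20.4% of all miRNAs called lower in lactation.

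**Figure D2:**
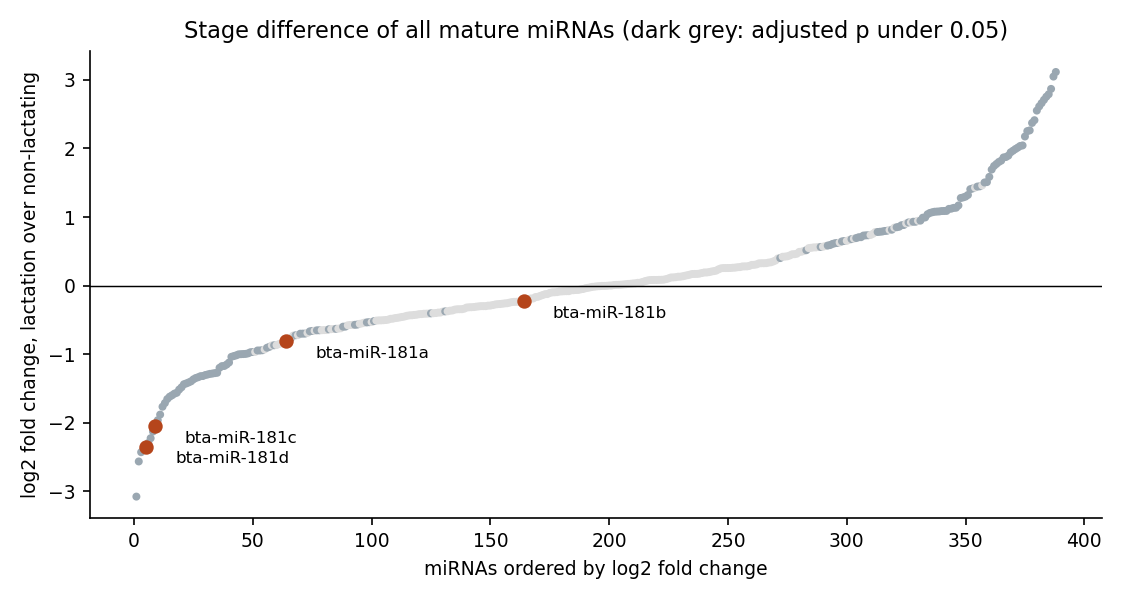
Each point is 1 of the 388 mature miRNAs, placed from lowest to highest along the x axis by its log2 fold change of lactation over non-lactating on the y axis, with dark grey for a limma adjusted p under 0.05 and the 4 miR-181 members in red. miR-181d (-2.35) and miR-181c (-2.04) sit at the low end, miR-181a (-0.81) further in, and miR-181b (-0.23) among the miRNAs that were not called.

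The call for miR-181a was the least secure of these. Without the LP3 library, its lowest value, the log2 fold change was -0.67 and the limma adjusted p was 0.0510. With the size factors its stages also overlapped, whereas the TPM did not. On TPM, 9.28% of all miRNAs were lower in every lactation library than in any non-lactating one, and miR-181a, miR-181c and miR-181d were among them. After the size factors the share was 10.3%, and it held miR-181c and miR-181d. The size factors of HD1 and LD1 were both 1.5, and those of the other 10 libraries lay between 0.764 and 1.14.

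The stage difference of the miR-181c and miR-181d pair was present among high protein cows and among low protein cows. Between HP and HD, miR-181d had a log2 fold change of -2.77 ± 0.29, or 6.84-fold, with a limma adjusted p of 0.000497. For miR-181c it was -2.45 ± 0.33, or 5.48-fold, with a limma adjusted p of 0.00134. In that comparison 16% of all miRNAs were called lower in lactation. Neither abundant member passed, with miR-181a at -0.65 ± 0.29 (limma adjusted p = 0.127) and miR-181b at -0.12 ± 0.36 (limma adjusted p = 0.828).

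Between LP and LD the same pair had smaller fold changes. miR-181d stood at -1.91 ± 0.41, or 3.75-fold, with a limma adjusted p of 0.0233. miR-181c stood at -1.62 ± 0.42, or 3.08-fold, with a limma adjusted p of 0.0348. Here 5.15% of all miRNAs were called lower in lactation. miR-181a was at -0.96 ± 0.41 (limma adjusted p = 0.152) and miR-181b at -0.32 ± 0.27 (limma adjusted p = 0.457). Both calls were lost when any of 5 of the 6 libraries was left out, with limma adjusted p up to 0.137 for miR-181c and 0.0962 for miR-181d, and without LD1 they were 0.00313 and 0.00426.

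The test of the difference itself, the phenotype by stage term over 12 libraries, called 0% of the miRNAs at an adjusted p under 0.05, with 20 of 388 at an unadjusted p under 0.05. For miR-181d the term was 0.88 ± 0.48 on the log2 scale, with a 95% interval of -0.17 to 1.92 and a limma adjusted p of 0.963. For miR-181c it was 0.85 ± 0.55, with a 95% interval of -0.35 to 2.05 and a limma adjusted p of 0.963. Those for miR-181a (-0.30 ± 0.50) and miR-181b (-0.18 ± 0.45) were nearer to 0. Both intervals include 0 as well as a stage difference larger in high protein cows by as much as 1.92 on the log2 scale. High and low are again taken from the names of the libraries, and the doubt about them set out below holds here too.

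**Figure D3:**
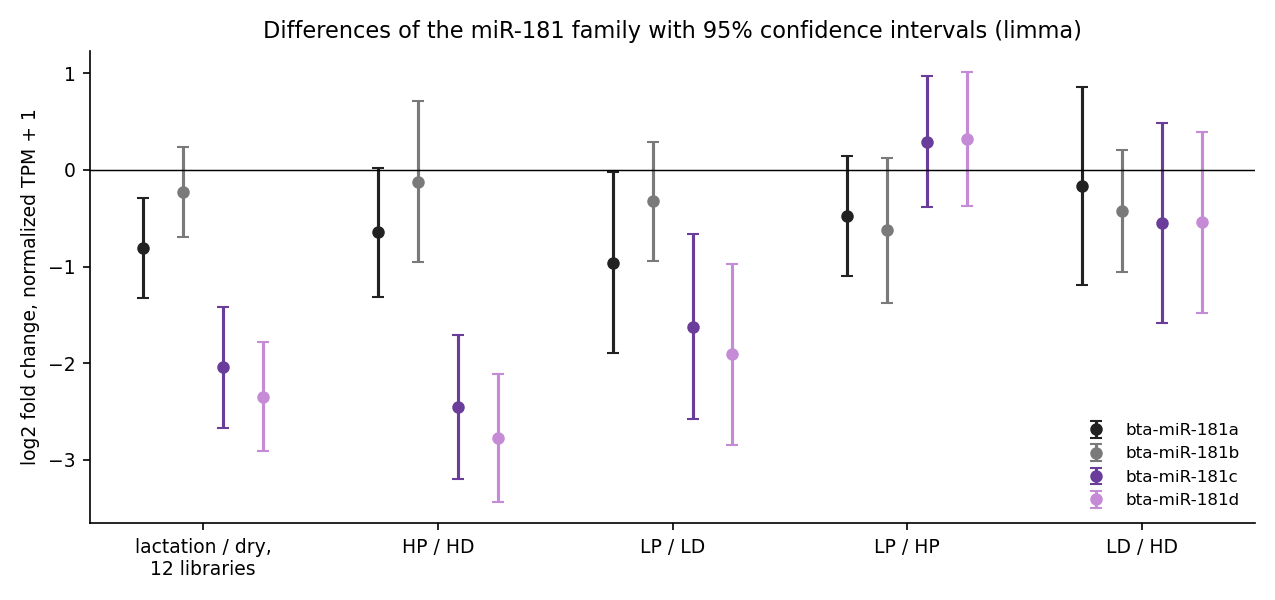
Log2 fold change of normalized TPM + 1 (y axis) for the 4 members in 5 comparisons (x axis), where points are limma estimates and bars are 95% confidence intervals, with 6 libraries in each comparison except the first, which has 12. The intervals of miR-181c and miR-181d lie below 0 in the 3 stage comparisons, and all intervals in LP over HP and LD over HD include 0.

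The comparison of HP with LP asks which miRNAs at peak lactation differ with the milk protein percentage recorded over the previous lactation. High and low are taken from the names of the libraries, and the sources used here leave it in doubt which sign a difference between phenotypes carries, so the size of these values is firmer than their direction. No member passed. miR-181a and miR-181b had negative values, with log2 fold changes of LP over HP of -0.47 ± 0.28 (95% interval -1.10 to 0.15, limma adjusted p = 0.473) and -0.62 ± 0.34 (95% interval -1.38 to 0.13, limma adjusted p = 0.434). miR-181c and miR-181d had the opposite sign, at 0.29 ± 0.30 (95% interval -0.38 to 0.97, limma adjusted p = 0.738) and 0.32 ± 0.31 (95% interval -0.37 to 1.01, limma adjusted p = 0.716). In this comparison 0.258% of all miRNAs, a single one, passed. Under the looser rule that the study used, an unadjusted p under 0.05 with an absolute log2 fold change over 0.8, 10.1% of all miRNAs passed and 0 of the 4 members did. The groups overlapped in TPM for every member. With size factors, miR-181d was higher in each LP library (20.6 to 24.8 normalized TPM) than in any HP library (15.3 to 20.1), as were 12.1% of all miRNAs.

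The comparison of HD with LD asks the same in the non-lactating gland. The same doubt about the sign holds here. In TPM, all 4 members were lower in every LD library than in any HD library, against 5.67% of all miRNAs. This separation was absent after the size factors, when 0 of 4 members and 4.9% of all miRNAs were lower in every LD library. The normalized level of miR-181d, for example, was 101 to 148 in HD and 52.5 to 135 in LD. Over all miRNAs the median log2 fold change moved from 0.03 to -0.16 when the size factors were left out, a shift that the members share.

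No member passed in HD against LD. The log2 fold changes of LD over HD were -0.17 ± 0.44 for miR-181a, -0.43 ± 0.27 for miR-181b, -0.55 ± 0.44 for miR-181c and -0.54 ± 0.40 for miR-181d, each with a limma adjusted p of 0.993. Their 95% intervals ran from -1.19 to 0.86, -1.06 to 0.20, -1.58 to 0.49 and -1.48 to 0.39 in that order. Without LD1 the values of miR-181c and miR-181d were -0.05 and -0.13, and that of miR-181a was 0.24. These intervals include 0 and also a halving in LD. limma called 0% of all miRNAs, with 19 of 388 at an unadjusted p under 0.05. Under the study's rule 3.35% of all miRNAs passed, and 0 of the 4 members. With its own count model the study called more miRNAs than this in the same comparison, some of them with an adjusted p under 0.05.

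The make-up of the family differed between the stages, a measure that needs no scaling between libraries. miR-181a held 92.4% of the family's TPM in lactation libraries and 92.3% in non-lactating ones (exact permutation p = 0.926). The share of miR-181b fell from 5.97 ± 2.31% in lactation libraries to 3.89 ± 0.878% in non-lactating ones (SD, n = 6 each). That of miR-181c rose from 1.56 ± 0.675% to 3.54 ± 1.09%, and that of miR-181d from 0.107 ± 0.0456% to 0.307 ± 0.0664%. The two-sided exact permutation p was 0.0195 for miR-181b, 0.00649 for miR-181c and 0.00216 for miR-181d, or 0.0260, 0.0130 and 0.00866 after adjustment over the 4 shares. The stages did not overlap in the share of miR-181d. The call for miR-181b was lost in 4 of 12 runs that each left out 1 library, and without HP1 its difference went from 2.08 to 1.16 percentage points. When both precursor entries of miR-181a and miR-181b were summed, which enlarges the family total, the differences in share went from -1.98 to -1.02 points for miR-181c and from -0.20 to -0.10 for miR-181d, and both stayed calls.

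Ratios of TPM between members were compared first for the partners of one locus pair and then across pairs. The ratio of miR-181c to miR-181d was 14.9 ± 3.55 in lactation libraries and 11.4 ± 1.41 in non-lactating ones (SD, n = 6 each), and the ranges of 9.37 to 19.8 and 9.40 to 13.2 overlapped (exact permutation p = 0.0671, adjusted over 4 ratios 0.0671). The overlap came from HP1 alone, and without it the difference of 0.35 on the log2 scale became 0.48, with an adjusted exact permutation p of 0.00433. The ratio of miR-181a to miR-181b was 16.95 ± 4.72 in lactation libraries and 24.95 ± 6.68 in non-lactating ones, with overlapping ranges of 8.39 to 21.1 and 18.3 to 36.5 (exact permutation p = 0.0281, adjusted 0.0375). Without HP1 the difference between the stages in this ratio went from -0.58 to -0.39 on the log2 scale, with an adjusted exact permutation p of 0.0606.

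Across the pairs, both ratios were higher in lactation. The ratio of miR-181a to miR-181c was 68.2 ± 25.7 in lactation libraries and 28.04 ± 7.83 in non-lactating ones, a difference of 1.24 on the log2 scale (exact permutation p = 0.00649, adjusted 0.0130). The ratio of miR-181b to miR-181d was 62.2 ± 30.2 in lactation, with a range of 31.4 to 117, and 12.9 ± 3.36 in the non-lactating period, with a range of 10.3 to 19.4. This was a difference of 2.17 on the log2 scale without overlap (exact permutation p = 0.00216, adjusted 0.00866). miR-181b and miR-181d, and likewise miR-181a and miR-181c, are close in sequence, and reads were aligned to the genome with 1 mismatch allowed. Some reads could therefore be credited to the wrong member. Their share was not measured, and it would weigh most on miR-181d, the scarcest member. The part of this in the ratios was not tested.

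Within a stage, few of these measures separated the phenotypes. In lactation, the ratio of miR-181b to miR-181d was 62.1 to 117 in HP and 31.4 to 51.2 in LP, without overlap, and the share of miR-181d averaged 0.0759% in HP and 0.138% in LP, again without overlap. Both had an exact permutation p of 0.1, the smallest that 3 libraries against 3 can give, and 0.4 after adjustment. In the non-lactating period all shares and ratios overlapped between HD and LD.

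**Figure D4:**
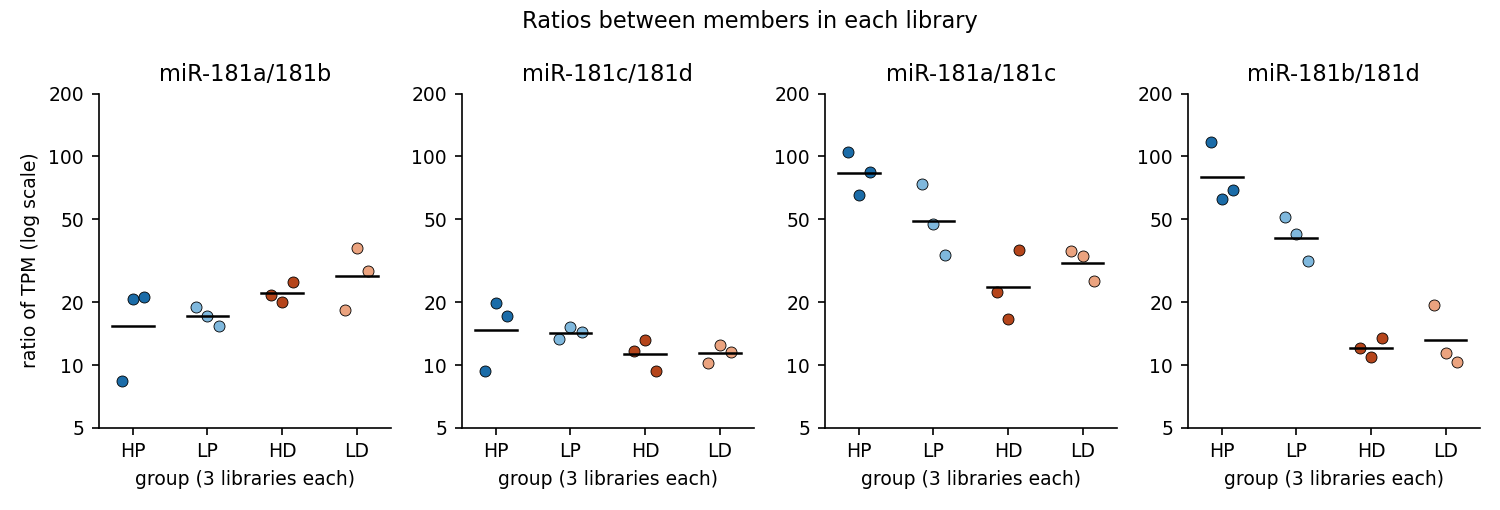
Ratios of TPM between members (y axis, log scale) in each library of HP, LP, HD and LD, with 3 libraries a group and horizontal lines at geometric means. The ratio of miR-181b to miR-181d lies at 31.4 to 117 in lactation and at 10.3 to 19.4 in the non-lactating period without overlap, whereas the stages overlap for miR-181c to miR-181d (9.37 to 19.8 and 9.40 to 13.2) through the HP1 library at 9.37.

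Across libraries of one stage, the highest r of any pair of members was that of miR-181c and miR-181d in the non-lactating period. Over its 6 libraries, normalized log2 levels of the pair had a Pearson r of 0.96 (exact permutation p = 0.00417) and a Spearman rho of 0.943 (exact permutation p = 0.0167). The adjusted p over the 12 relations computed was 0.05, not under the threshold. Without HD2 and LD1, the libraries farthest from the median of miR-181c, r was 0.723. The other pairs also had a positive r in this period, from 0.687 for miR-181a and miR-181b to 0.846 for miR-181b and miR-181d. Without HD3 and LD1, r was 0.958 for miR-181b and miR-181d and 0.968 for miR-181b and miR-181c. For pairs with miR-181a it fell without HD1 and LD1, down to -0.94 with miR-181c. In lactation miR-181c and miR-181d had an r of 0.409 (exact permutation p = 0.446) and a rho of 0.429 (exact permutation p = 0.419). r was 0.545 without HP1 and LP2.

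For the miR-181a and miR-181b pair no relation passed in either stage. Its r was 0.436 in lactation (exact permutation p = 0.278, rho 0.600 with p = 0.242) and 0.687 in the non-lactating period (exact permutation p = 0.133, rho 0.600 with p = 0.242). Without the libraries farthest from the median of miR-181a, r fell to -0.03 in lactation and to 0.10 in the non-lactating period. With only HP1 left out, r in lactation rose to 0.962 (adjusted exact permutation p = 0.0944), and with only LP3 left out it was -0.13. Leaving out 1 non-lactating library at a time gave an r of 0.414 to 0.909. miR-181a and miR-181d had a negative r of -0.76 in lactation (exact permutation p = 0.0708, rho -0.89 with p = 0.0333), which was -0.98 without HP2 and LP3. In the non-lactating period their r was 0.809 (exact permutation p = 0.0431, rho 0.600 with p = 0.242), and -0.36 without HD1 and LD1. After adjustment none of the 12 relations was under 0.05.

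As a description of likeness, other miRNAs with a mean of at least 10 TPM, 230 in number, were ranked by the lower of their Pearson r with a member in the 6 lactation and the 6 non-lactating libraries. The members themselves were not candidates. These libraries share their depths and scaling, so no test is attached. Closest to miR-181a were miR-1388-5p (r 0.862 in lactation, 0.878 in the non-lactating period), miR-125a (0.827, 0.945) and miR-125b (0.858, 0.801). Closest to miR-181b were let-7a-5p (0.934, 0.983), miR-17-3p (0.889, 0.924) and let-7c (0.924, 0.808). The miRNAs nearest to the other pair were less alike. They were miR-221 (0.851, 0.570), miR-10a (0.565, 0.622) and miR-199c (0.949, 0.516) for miR-181c, and miR-140 (0.715, 0.673), miR-24-3p (0.818, 0.568) and miR-200b (0.748, 0.527) for miR-181d.

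The miRNAs known from lymphocyte development and activation, the setting in which miR-181 is best known, were mostly not called between stages. Of 12 measured, 4 were lower in lactation, against the 20.4% of all miRNAs given above, 0 were higher and 8 were not called, with a median log2 fold change of -0.40 against -0.01 over all miRNAs. Their 2 most abundant entries were miR-125b, at -0.34 (limma adjusted p = 0.230), and miR-142-5p, a miRNA of blood cells, at -0.77 (limma adjusted p = 0.0233). Their summed TPM was 24671 to 28931 for HP, 16506 to 22224 for LP, 32239 to 39412 for HD and 27866 to 43779 for LD.

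Markers of the cell types that a biopsy can hold were examined beside the family. Over all miRNAs, 20.4% were called lower in lactation and 22.2% higher. Of 5 leukocyte miRNAs, 2 were lower in lactation and 3 were not called, and their sum was 5789.8 to 8911 TPM for HP, 5146 to 6981 TPM for LP, 8262 to 10428 TPM for HD and 10543 to 20486 TPM for LD. In TPM, the sum was thus higher in each LD library than in any HD library, though only by 10543 against 10428 TPM, and it was not examined with size factors. Other lists also separated phenotypes in TPM. The lymphocyte sum above and the muscle and stroma sum below did not overlap between HP and LP. The leukocyte sum was led by miR-142-5p, with a mean of 7903 TPM, and the doubt about the sign between phenotypes holds here too. Among the leukocyte markers, miR-150, abundant in mature lymphocytes, was at 0.34 (limma adjusted p = 0.592). Of 6 epithelial miRNAs, 4 were higher in lactation and 2 were not called, with miR-141 at 1.28 (limma adjusted p = 0.0144) and miR-205 at -0.08 (limma adjusted p = 0.759). Their sum was 34301 to 39034 TPM for HP, 34490.1 to 44370.5 TPM for LP, 20786 to 38785 TPM for HD and 14978 to 27928 TPM for LD, so epithelial miRNAs were well represented in all groups.

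Both endothelial miRNAs were higher in lactation, with miR-126-3p at 1.12 (limma adjusted p = 0.000127) and miR-126-5p at 0.73 (limma adjusted p = 0.0251), and their sum was 10665 to 16528 TPM over lactation groups and 4676 to 10738 TPM over non-lactating groups. Of 7 muscle and stroma miRNAs measured among 8 listed, 2 were lower in lactation and 5 were not called. miR-143 was at -0.26 (limma adjusted p = 0.496) and miR-199a-3p at -0.63 (limma adjusted p = 0.0245). Their sum was 66870.3 to 97798 TPM for HP, 122166 to 157824 TPM for LP, 99574 to 143084 TPM for HD and 119182 to 238713 TPM for LD. The 3 erythroid miRNAs, led by miR-486 (0.58, limma adjusted p = 0.418) and miR-451 (0.92, limma adjusted p = 0.278), were not called, and their sum was 781 to 1378 TPM for HP, 1126 to 2041 TPM for LP, 413 to 773 TPM for HD and 680.2 to 6127 TPM for LD. No marker was at 0 in all libraries of a group. No member of any of these lists was called in HP against LP or HD against LD, where only 0.258% and 0% of all miRNAs were called. With its own model and looser rule the study called several of them, among them miR-143 and miR-451 in HP against LP and miR-486 in HD against LD. Its count model also gave miR-141 and miR-144 an adjusted p under 0.05 in HD against LD. Its calls there thus did not all rest on the looser rule. The part of cell composition in the stage differences of miR-181a, miR-181c and miR-181d was not tested.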

How the data were processed

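Small RNA libraries of 18 to 30 nt inserts were made from 12 mammary biopsies, 3 cows in each of 4 groups. According to the study's methods, reads were trimmed with Cutadapt 2.8 and Trimmomatic 0.36, aligned to ARS-UCD 1.2 with Bowtie 1.1.1 allowing 1 mismatch, and assigned to miRBase 22.0 miRNAs with miRDeep2. The authors deposited a table of depth-scaled read values (RPM, which they call TPM) for 426 precursor entries. Columns summed to 999952 to 999976, and 0 columns were left unused. In each library at least 99.763% of values lay within 0.0051 TPM of a whole multiple of one step, from which the reads credited to miRNA entries were estimated, and a floor of 3 reads was 0.127 to 0.498 TPM. Intervals given here reflect the spread between cows.

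The 426 entries were reduced to 388 mature miRNAs by keeping the precursor entry with the highest mean. Because the file holds no counts, the study's count model was replaced by limma 3.58.1 (R 4.3.3, trend and empirical Bayes) on log2(TPM / size factor + 1), with size factors set within each fit and Benjamini-Hochberg adjustment over 388 miRNAs. The rule for likeness, the most abundant 2 entries of each marker list and the exact permutation tests (scipy 1.17.1, two-sided) are described with their results. The fitting code was tested on simulated data. Members, lists and tests were chosen with earlier results of these data known.

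Replicate numbers in the labels do not state a shared animal or batch, and the libraries came from 12 different cows. Deviations from group means of same-numbered libraries correlated at 0.217, 0.110 and 0.110 for HP and HD, at -0.30, -0.32 and -0.03 for HP and LP, at 0.615, -0.13 and 0.593 for HD and LD, and at -0.44, -0.07 and -0.26 for LP and LD. Only HP and HD were over 0.1 in all 3 pairs. A fit with the number as a block was run as an alternative, beside pseudocounts of 0.1 and 5, no size factors, a minimum mean of 10 TPM, all 12 libraries in 1 fit, summed precursor entries and each library left out in turn.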

Additional observations from a re-analysis of the deposited data

Results flagged for a closer look

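In 26 sets of 6 libraries of one stage (levels, shares, ratios and the total of the members), the highest or lowest library was compared with its nearest neighbour, and about 1 set in 20 stands apart by chance. In 3 sets a library stood apart, each time HP1 in lactation and each time through miR-181b. Its miR-181b level was 2241 TPM, against 1189 TPM in the next library. miR-181b took 10.6% of its family's TPM, against 5.92% in the next. Its log2 ratio of miR-181a to miR-181b was 3.07, against 3.95 in the nearest library. HP1 also had the fewest reads credited to miRNA entries, an estimated 6026797, of which 13505 belonged to miR-181b, and the part of this in the value was not tested.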

How the results depend on the processing

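Across alternatives other than leaving out a library, 270 values kept their direction and their side of the threshold or stayed close. Without size factors, miR-181a between HP and HD became a call (-0.86, limma adjusted p = 0.0124), miR-181c and miR-181d between LP and LD were lost (-1.63 and -1.92, limma adjusted p = 0.0536 for both, with 7 miRNAs called in all), the phenotype by stage term of miR-181b turned to 0.0058, and r of miR-181a with miR-181c in lactation turned to 0.0930. Over all miRNAs the median shifted at the same time from 0.02 to -0.15 for HP and HD, and from -0.04 to 0.11 for the phenotype by stage term. Counts of all miRNAs moved too. HP against LP had 4 calls with a minimum mean of 10 TPM and 2 with all 12 libraries in 1 fit. LP against LD had 86 with all 12 libraries in 1 fit. Under the study's rule, HP against LP had 22 with a pseudocount of 5, and HD against LD had 7 with a pseudocount of 5 and 3 without size factors. With summed precursor entries the share of miR-181a was 0.88 percentage points lower in lactation (-0.88), the differences in share of miR-181c (-1.02) and miR-181d (-0.10) were about 2 times smaller, and the family sum differed by -13551 TPM (LP minus HP) and -21674 TPM (LD minus HD). With size factors the sum differed by -2781 TPM (LD minus HD). The size factors rescale every miRNA, and summing the entries adds almost the same number of miR-181a reads to the family again. The causes of the other changes were not tested.

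With the replicate number as a block, HP against LP had 0 calls by limma and LP against LD had 21. For HP and HD, miR-181a had a limma adjusted p of 0.0842, miR-181c 0.00207 and miR-181d 0.00358, and the block changed no call of a member in any comparison.

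Leaving out 1 library changed the call, the direction or the count in these results, given as lowest to highest. miR-181a ran from -0.40 to 0.24 in LD over HD, from -0.95 to -0.67 for stage and from -1.32 to -0.71 in LP over LD, where it passed without LD1 (limma adjusted p = 0.0223). miR-181b ran from -0.38 to 0.18 for phenotype by stage and from -0.50 to 0.0941 in HP over HD. In LP over LD, miR-181c ran from -2.08 to -1.32 and miR-181d from -2.27 to -1.63. Stage differences in share ran from -0.41 to 0.87 points for miR-181a and from 1.16 to 2.38 for miR-181b, which lost its call in 4 of 12 runs. Log2 ratios ran from -0.66 to -0.39 for miR-181a to miR-181b, lost in 7 of 12, and from 0.26 to 0.48 for miR-181c to miR-181d, which passed without HP1 (adjusted exact permutation p = 0.00433). In lactation r ran from -0.13 to 0.962 for miR-181a with miR-181b, from -0.58 to 0.0406 for miR-181a with miR-181c and from -0.56 to 0.0588 for miR-181b with miR-181d, and in the non-lactating period from -0.0426 to 0.864 for miR-181a with miR-181c. Calls by limma ran from 0 to 10 in HP against LP, the highest without HP1, from 61 to 122 in HP against HD, the lowest without HP2, and from 4 to 82 in LP against LD, the lowest without LP3 and the highest without LD1. Under the study's rule they ran from 24 to 53 in HP against LP, the lowest without LP1, and from 6 to 36 in HD against LD, the lowest without HD2 and the highest without LD1. Members that were not called also moved in size. In LP over HP, miR-181b ran from -0.84 to -0.26 and miR-181c from 0.05 to 0.53, both nearest to 0 without HP1. In LD over HD, miR-181c ran from -0.86 to -0.05 and miR-181d from -0.84 to -0.13, both nearest to 0 without LD1. For phenotype by stage, miR-181c ran from 0.37 to 1.15 and miR-181d from 0.48 to 1.16. The stage calls of miR-181c (-2.29 to -1.89) and miR-181d (-2.56 to -2.24) held in all 12 runs, with limma adjusted p of at most 0.000487 and 0.000121.

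A planned count model on reads recovered from the values was not run. A separate check for whole reads did not accept 11 of 12 libraries, for lack of low values. The read numbers given here, taken from the step between values, therefore remain estimates. With 3 cows a group, the exact tests within a stage cannot go below p = 0.1.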
